A study of Rattus norvegicus with 16 samples.

Results

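The genes described here are 9 that carry butyrate into the colonic epithelium, burn fatty acids and make ketone bodies, or govern those steps. They are Slc16a1, Slc5a8, Acads, Acadm, Bdh1, Cpt1a, Pdk4, Ppara and Pparg. They were found as the non-control probes whose transcript accession maps to one of these rat symbols, and they are 9 of the 15159 genes that could be named on the array. Each was measured by 1 probe. For 8 genes the probe stood well above background in all 16 rats, and for Pdk4 it did so in 3.

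Butyrate is a short-chain fatty acid that colonic bacteria release from fibre, and it is a main fuel of the colonocyte. The cell takes it up through monocarboxylate transporters, activates it to butyryl-CoA and oxidises it in the mitochondria, where the shortest acyl chains are handled by dedicated dehydrogenases and part of the acetyl-CoA is turned into ketone bodies. The PPAR nuclear receptors bind fatty acids and, together with the retinoid X receptors, switch on many genes of fatty acid transport, oxidation and storage.

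Transcript levels came from single-colour Agilent arrays of distal colon labelled normal, from 16 males, 1 array each. All were (ACIxF344)F1 hybrids sampled at 97 days of age, and they formed 4 groups of 4. The wildtype rats and the Pirc rats, which are heterozygous (Pirc/+) for a truncating germline allele of the tumour suppressor Apc, were either untreated or had received 4% dextran sodium sulfate (DSS), a polymer that injures the colonic epithelium. DSS was given in drinking water in 2 courses, on days 40 to 47 and 54 to 61, so that tissue was taken 36 days after the last dose. The Apc allele is present in every cell of a Pirc rat, and the tissue is a piece of colon that holds several cell types. In such tissue, fewer cells of a type and less RNA per cell cannot be told apart.

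Levels are given as the log2 of the signal relative to the 75th percentile of the same array, and differences as log2 differences between groups. A difference passed the test at an adjusted p of 0.05 or less in limma, adjusted over all 30367 probes. The 75th percentile of the signal ran from 875 to 2194 among the arrays, with the lowest value on the array of rat 16, a DSS-treated Pirc rat, and 1063 or more on the others. Of 12 general markers of colonic epithelium, 11 were measured, and all 11 were well above background in all 16 rats. Their summed signal overlapped among the groups, at 772 to 927 times the 75th percentile in untreated wildtype rats, 801 to 1032 in DSS-treated wildtype rats, 665 to 887 in untreated Pirc rats and 683 to 904 in DSS-treated Pirc rats. Their mean log2 level overlapped between the genotypes in untreated rats. After DSS it did not, at 5.709 to 5.963 in wildtype and 5.386 to 5.687 in Pirc rats.

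After DSS, 3 of the 9 genes had lower transcript levels over both genotypes, and none had a higher level. They were the transporter Slc16a1 and the acyl-CoA dehydrogenases Acads and Acadm. The DSS and genotype comparisons share groups of rats, so their values are given side by side. Over all probes 17.2% passed this comparison, 10.2% as higher and 6.99% as lower. The median difference of the 8 genes well above background in all rats was -0.34, beside 0.06 over all probes. Under quantile normalization the median over all probes was -0.06, and the share of passing probes that were higher moved from 59.4% to 41.7%, while the 3 genes still passed as lower.

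In Pirc rats alone the DSS difference passed for 2 of the 9 genes, Slc16a1 and Acadm, both lower, where 14.7% of all probes passed, 8.14% as higher and 6.51% as lower. In wildtype rats alone it passed for none, where 3.84% of probes passed, 2.94% as higher and 0.899% as lower, and 1 gene, Acads, had an unadjusted p below 0.05 in limma, as did 16.8% of all probes. The difference between the DSS effects of the genotypes, which tests whether the response differed, passed for none of the 9 genes and for 0.0428% of probes. None of the 9 had an unadjusted p below 0.05 in that test, where 10.6% of all probes did.

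Between genotypes, Slc16a1 and Acadm were lower in Pirc than in wildtype rats over both treatments, where 17.5% of probes passed, 9.26% as higher and 8.27% as lower. After DSS Slc16a1 and Acadm again passed as lower, where 18.2% of all probes passed, 9.47% as higher and 8.76% as lower. In untreated rats none of the 9 genes passed, and neither did any probe on the array (0%). There 3 of the 8 genes well above background in all rats, Slc16a1, Slc5a8 and Cpt1a, had an unadjusted p below 0.05, as did 10.2% of all probes. Where a 2-fold change was required as well, none of the 9 genes passed in any comparison. Of all probes, 5.99% did so for DSS over the genotypes together, 7.46% for Pirc rats alone, 2.77% for wildtype rats alone, 2% between the genotypes and 5.47% between them after DSS. Among the 8 genes well above background in all rats, the largest difference that passed, that of Slc16a1 between the genotypes after DSS, was just short of it.

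**Figure D1:**
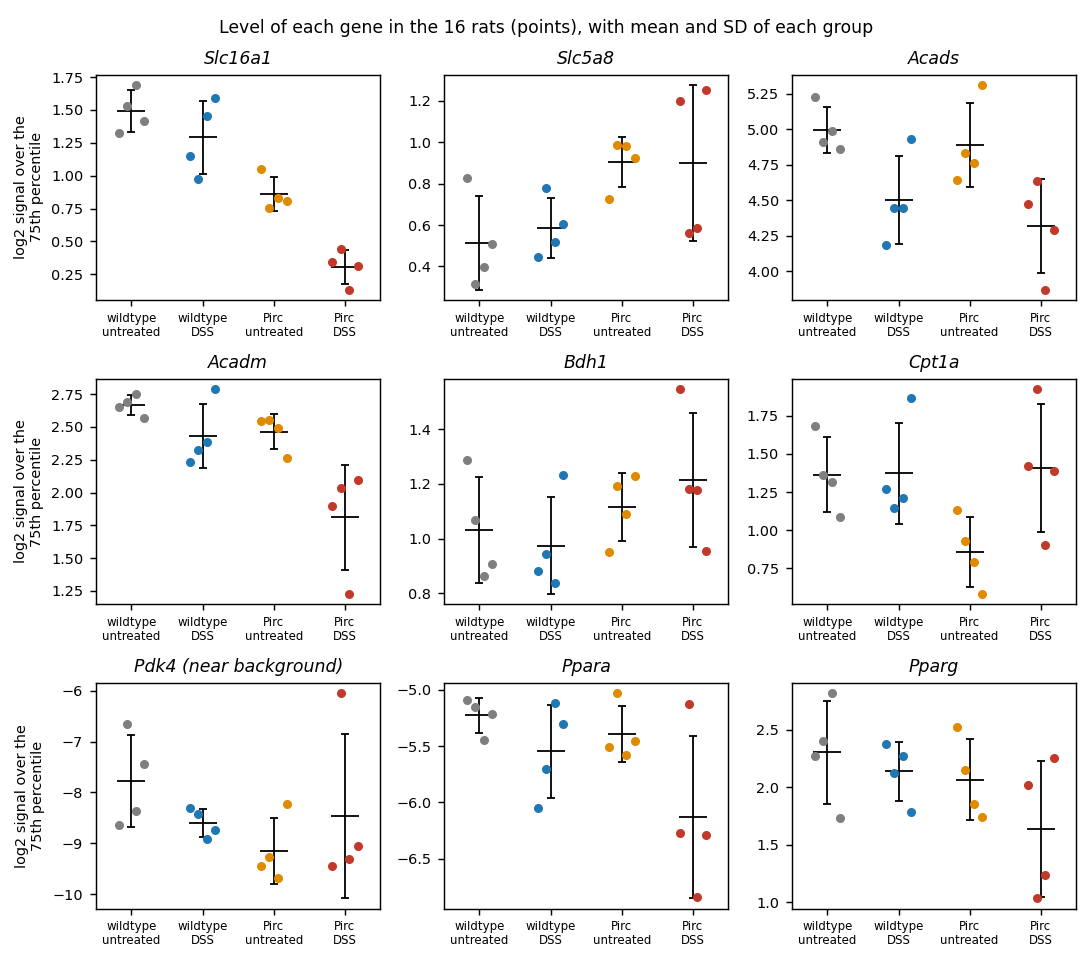
Transcript level of the 9 genes in each of the 16 rats (points), as the log2 signal over the 75th percentile of the array, with the mean and SD of each group of 4. Slc16a1 in the 4 DSS-treated Pirc rats, at 0.13 to 0.44, lies below every other rat, whereas the groups overlap for Bdh1, Ppara and Pparg.

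Among the transporters, Slc16a1 encodes the proton-coupled monocarboxylate transporter MCT1, which carries butyrate, lactate and ketone bodies. Its level was 1.33, 1.53, 1.69 and 1.42 in the untreated wildtype rats and 1.15, 0.97, 1.45 and 1.59 in the DSS-treated wildtype rats. It was 1.05, 0.76, 0.83 and 0.81 in the untreated Pirc rats and 0.34, 0.44, 0.13 and 0.31 in the DSS-treated Pirc rats. The DSS-treated Pirc rats lay below all other rats, and the untreated Pirc rats lay below all untreated wildtype rats, whereas the wildtype groups overlapped. After DSS, 9.13% of all probes likewise had every Pirc rat below every wildtype rat, and 2 of the 9 genes did, Slc16a1 and Acadm.

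Slc16a1 was 1.98-fold lower in Pirc than in wildtype rats after DSS (log2 difference -0.98, SE 0.15, adjusted p 0.00104). Over both treatments the Pirc difference was -0.81 (SE 0.10, adjusted p 0.000641). Both kept an adjusted p below 0.05 under each other setting tried, although neither value given here reaches a 2-fold change. In untreated rats the difference was -0.63 (95% confidence interval -0.94 to -0.32) without overlap of the groups, a pattern that 2 of the 9 genes, Slc16a1 and Acadm, and 4.02% of all probes showed in this direction, and its adjusted p was 0.187.

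The DSS difference of Slc16a1 was -0.38 over both genotypes (SE 0.10, adjusted p 0.0192). It was -0.55 in Pirc rats (SE 0.15, adjusted p 0.0195) and -0.20 in wildtype rats (95% confidence interval -0.51 to 0.11, adjusted p 0.568). The Pirc groups did not overlap, as for 3 of the 9 genes and 8.06% of all probes in this direction. The 2 responses differed by -0.35 (95% confidence interval -0.79 to 0.09, adjusted p 0.563), so that no difference between the genotypes in the response to DSS was shown. Without rat 11 the difference in Pirc rats was -0.49 with an adjusted p of 0.0634, without rat 20 it was -0.50 with 0.0657, and with only the Pirc rats in the fit its adjusted p was 0.0505. The range over its 28 alternatives was 0.00912 to 0.0657.

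Slc5a8 encodes SMCT1, which carries butyrate into the cell together with sodium. Its level was 0.83, 0.31, 0.40 and 0.51 in the untreated wildtype rats and 0.45, 0.78, 0.52 and 0.60 in those given DSS. It was 0.73, 0.99, 0.98 and 0.92 in the untreated Pirc rats and 1.20, 0.56, 0.59 and 1.25 in those given DSS. The Pirc rats had the higher means, yet the genotypes overlapped within each treatment, and the DSS-treated Pirc rats fell into a higher and a lower pair.

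The Pirc difference of Slc5a8 over both treatments was 0.35, opposite in sign to that of Slc16a1, and did not pass the test (SE 0.12, adjusted p 0.063). It passed with dim probes left out (adjusted p 0.0373), with a common floor for dim probes (0.0371), and without rat 13 (0.0429), rat 16 (0.0271) or rat 20 (0.0436), in a range of 0.0271 to 0.127 over 27 alternatives. The difference was 0.39 in untreated rats (adjusted p 0.46) and 0.31 after DSS (adjusted p 0.245). The DSS difference was 0.04 over both genotypes (95% confidence interval -0.23 to 0.30), with 0.07 in wildtype rats and an interval of -0.38 to 0.37 in Pirc rats.

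Acads encodes the short-chain acyl-CoA dehydrogenase, the enzyme that takes butyryl-CoA into beta-oxidation. Its level was 5.23, 4.91, 4.98 and 4.86 in the untreated wildtype rats and 4.19, 4.44, 4.44 and 4.93 after DSS. It was 4.64, 4.83, 4.76 and 5.31 in the untreated Pirc rats and 4.48, 4.63, 3.87 and 4.29 after DSS. In Pirc rats the treated and untreated groups did not overlap, and in wildtype rats only rat 26, at 4.93, reached the untreated range.

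The DSS difference of Acads was -0.53 over both genotypes, a 1.45-fold lower level (SE 0.14, adjusted p 0.0166). It was of like size in both genotypes, at -0.57 in Pirc rats (adjusted p 0.0727) and -0.50 in wildtype rats (adjusted p 0.212), with a difference between them of -0.07 (95% confidence interval -0.68 to 0.53). In Pirc rats it passed under quantile normalization (-0.71, adjusted p 0.00708), with dim probes left out (0.0463), with a common floor (0.0493) and without rat 16 (-0.68, 0.0475), in a range of 0.00708 to 0.228 over 28 alternatives. In Pirc rats the difference was -0.18 on slide 1 and -0.96 on slide 2, with 2 rats of each group on each. In wildtype rats it was -0.76 on slide 1 and -0.24 on slide 2. The like size thus held over both slides together and not within either slide. Between the genotypes Acads differed by -0.15 over both treatments (95% confidence interval -0.45 to 0.16, adjusted p 0.502).

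Acadm encodes the medium-chain acyl-CoA dehydrogenase. Its level was 2.65, 2.69, 2.75 and 2.57 in the untreated wildtype rats and 2.23, 2.32, 2.38 and 2.79 after DSS. It was 2.54, 2.55, 2.50 and 2.26 in the untreated Pirc rats and 1.89, 2.03, 1.23 and 2.10 after DSS. The DSS-treated Pirc rats lay below all others, rat 20 lowest among them, and 3 of the 4 DSS-treated wildtype rats lay below their untreated group.

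The DSS difference of Acadm was -0.44 over both genotypes (SE 0.13, adjusted p 0.0254) and -0.65 in Pirc rats (SE 0.18, adjusted p 0.0254). It was -0.23 in wildtype rats (95% confidence interval -0.62 to 0.15, adjusted p 0.597), and the 2 responses differed by -0.42 (95% confidence interval -0.96 to 0.13, adjusted p 0.583). Pirc rats had a lower level than wildtype rats, with a difference of -0.62 after DSS (SE 0.18, adjusted p 0.0282) and of -0.41 over both treatments (SE 0.13, adjusted p 0.0383). In untreated rats the difference was -0.20 (adjusted p 0.766), although the groups did not overlap.

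The calls for Acadm lay close to the threshold. Over both genotypes its DSS difference did not pass without rat 14, 15, 18 or 21, at -0.41 to -0.43 with adjusted p from 0.0514 to 0.0572. In Pirc rats it did not pass without rat 11, 15, 19 or 20, at -0.46 (without rat 20) to -0.64 with adjusted p from 0.0605 to 0.0716, nor with only the Pirc rats in the fit, where it stayed at -0.65 and the adjusted p was 0.107. After DSS the genotype difference did not pass without rat 12, 20, 22 or 26, at -0.42 (without rat 20) to -0.65 with adjusted p from 0.0525 to 0.076, and with only the DSS-treated rats in the fit it stayed at -0.62 with an adjusted p of 0.134. Over both treatments it did not pass without any of 10 rats (12, 13, 15, 17, 18, 19, 21, 22, 23 or 26), at -0.35 to -0.43 with adjusted p from 0.0506 to 0.0755, nor with the 4 sets of slide and row as a block (0.0569). The sign was negative under every alternative in these comparisons.

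**Figure D2:**
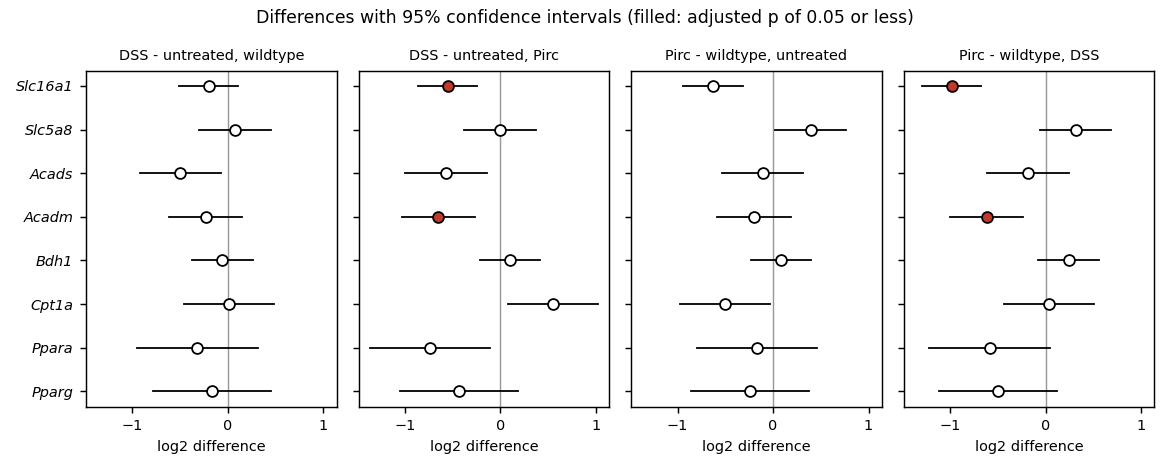
Log2 differences (horizontal axis) of 8 genes in the 4 comparisons of 2 groups, with 95% confidence intervals as lines and differences that passed the test filled. The filled points are Slc16a1 and Acadm after DSS in Pirc rats, at -0.55 and -0.65, and the same genes between Pirc and wildtype rats after DSS, at -0.98 and -0.62.

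The upstream sequence of the 3 genes that fell after DSS is shown because all 3 passed as lower over both genotypes. RefSeq promoter windows of the GRCr8 assembly, which span 250 bases before to 50 bases after each start, were matched for all 9 genes. The 250 bases before the start are given in the direction of transcription, with capitals at the GC box GGGCGG, searched on both strands and chosen after the data were seen. They lie at chr2:194812410-194812659 on the plus strand for Slc16a1, chr12:47154083-47154332 on the plus strand for Acads and chr2:245542865-245543114 on the minus strand for Acadm.
Slc16a1: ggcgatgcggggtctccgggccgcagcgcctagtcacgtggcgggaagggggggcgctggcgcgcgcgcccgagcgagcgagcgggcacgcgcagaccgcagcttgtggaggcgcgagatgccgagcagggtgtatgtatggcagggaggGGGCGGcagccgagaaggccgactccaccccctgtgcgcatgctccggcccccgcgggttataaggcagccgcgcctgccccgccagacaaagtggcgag
Acads: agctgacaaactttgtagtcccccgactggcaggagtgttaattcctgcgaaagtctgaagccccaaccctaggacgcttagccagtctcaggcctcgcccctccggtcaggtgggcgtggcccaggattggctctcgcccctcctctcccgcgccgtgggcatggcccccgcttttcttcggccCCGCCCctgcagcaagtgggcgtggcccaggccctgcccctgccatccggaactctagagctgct
Acadm: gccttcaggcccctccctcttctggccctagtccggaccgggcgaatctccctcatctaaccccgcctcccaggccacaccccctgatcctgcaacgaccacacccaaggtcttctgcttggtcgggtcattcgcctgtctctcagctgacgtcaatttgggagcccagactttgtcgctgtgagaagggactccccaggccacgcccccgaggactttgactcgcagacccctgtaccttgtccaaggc
In Acadm the GC boxes lie after the start, outside the stretch shown. A GC box stood in the 300-base window of 7 of the 9 genes, and in 33.1% of all 33469 windows. No window of the 9 genes held the letters AGGTCA, the unit of the element that PPAR receptors bind, on either strand, and 16.2% of all windows did. The full element, a direct repeat of that unit with 1 base between the copies, was searched on both strands with up to 2 mismatches and was found in none of the 9 and in 3.77% of all windows. These matches describe letters in the windows and were not tested for binding.

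Bdh1, which interconverts acetoacetate and beta-hydroxybutyrate, had closely spaced levels. Its level ran from 0.86 to 1.29 in untreated wildtype rats, 0.84 to 1.23 in DSS-treated wildtype rats, 0.95 to 1.23 in untreated Pirc rats and 0.95 to 1.55 in DSS-treated Pirc rats. All groups overlapped. The DSS difference was 0.02 over both genotypes (95% confidence interval -0.20 to 0.25, adjusted p 0.926) and the Pirc difference was 0.16 (95% confidence interval -0.06 to 0.39, adjusted p 0.314). Within the genotypes the DSS difference was 0.10 in Pirc and -0.06 in wildtype rats, and within the treatments the Pirc difference was 0.08 in untreated rats and 0.24 after DSS.

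Cpt1a encodes the carnitine palmitoyltransferase that admits long-chain fatty acids to the mitochondria, a step that butyrate does not need. Its level was 1.13, 0.93, 0.79 and 0.58 in the untreated Pirc rats and 1.42, 1.93, 0.90 and 1.39 in those given DSS. It ran from 1.09 to 1.68 in untreated and from 1.14 to 1.87 in DSS-treated wildtype rats. The untreated Pirc rats had the lowest mean, and the groups overlapped in each of the 4 comparisons of 2 groups.

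In Pirc rats the DSS difference of Cpt1a was 0.55 (95% confidence interval 0.08 to 1.02), opposite in sign to that of the dehydrogenases, with an adjusted p of 0.115. It did not pass under any alternative tried. In wildtype rats it was 0.01 (95% confidence interval -0.46 to 0.48), and the responses differed by 0.54 (95% confidence interval -0.12 to 1.21, adjusted p 0.559). The genotypes differed by -0.51 in untreated rats (adjusted p 0.45) and by 0.04 after DSS (adjusted p 0.928).

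Pdk4 encodes a kinase that inhibits the pyruvate dehydrogenase complex. Its probe was well above background in 2 untreated wildtype rats and in 1 DSS-treated Pirc rat, rat 16, and in no rat of the other 2 groups. Its measured level ran from -8.65 to -6.66 in untreated wildtype rats, -8.91 to -8.31 in DSS-treated wildtype rats, -9.69 to -8.22 in untreated Pirc rats and -9.44 to -6.05 in DSS-treated Pirc rats. No fold is given, because most of these values are not well above background.

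Ppara encodes the receptor PPAR-alpha, a regulator of fatty acid oxidation and ketogenesis. Its level was -5.09, -5.16, -5.44 and -5.22 in the untreated wildtype rats and -6.05, -5.71, -5.12 and -5.31 after DSS. It was -5.51, -5.03, -5.58 and -5.46 in the untreated Pirc rats and -6.27, -5.13, -6.84 and -6.29 after DSS. In 3 DSS-treated Pirc rats it lay below all other rats, and in rat 16, at -5.13, it lay among the untreated rats.

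The DSS difference of Ppara was -0.53 over both genotypes and did not pass (95% confidence interval -0.97 to -0.08, adjusted p 0.103). In Pirc rats it was -0.74 (adjusted p 0.115) and in wildtype rats -0.32 (adjusted p 0.682). Without rat 16 the difference over both genotypes was -0.70 with an adjusted p of 0.00677, and under quantile normalization it was -0.75 with 0.0111, whereas normexp background correction gave -0.01 and 0.976, the highest over 27 alternatives. Without rat 16 the Pirc difference over both treatments was -0.54 with an adjusted p of 0.0224, in place of -0.38 with 0.238 over all rats.

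Pparg encodes PPAR-gamma, which the colonic epithelium expresses and which adipocytes require. Its level ran from 1.73 to 2.82 in untreated wildtype rats, 1.79 to 2.37 in DSS-treated wildtype rats, 1.74 to 2.52 in untreated Pirc rats and 1.04 to 2.26 in DSS-treated Pirc rats. The DSS-treated Pirc rats had the lowest mean, and all groups overlapped. The DSS difference was -0.30 (95% confidence interval -0.73 to 0.14, adjusted p 0.399) and the Pirc difference -0.37 (95% confidence interval -0.81 to 0.07, adjusted p 0.238). The largest of its differences between 2 groups was that of the genotypes after DSS, at -0.50 (adjusted p 0.258).

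Each slide and each row of arrays held 2 rats of every group, and each of the 4 sets of arrays that shared a slide and a row held 1. Within the 2 slides and the 2 rows, the DSS difference over both genotypes lay between -0.45 and -0.30 for Slc16a1, between -0.66 and -0.41 for Acads and between -0.68 and -0.21 for Acadm. The Pirc difference over both treatments lay between -1.02 and -0.60 for Slc16a1 and between -0.60 and -0.22 for Acadm. All 4 rats of a group lay in the same column of arrays, and group and column cannot be told apart.

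The summed signal of markers of differentiated surface colonocytes was 245 to 328 times the 75th percentile in untreated wildtype rats, 304 to 373 in DSS-treated wildtype rats, 169 to 251 in untreated Pirc rats and 101 to 217 in DSS-treated Pirc rats. In this sum the genotypes overlapped in untreated rats and did not overlap after DSS. The mean log2 level of the same markers did overlap after DSS, at 1.181 to 1.852 in wildtype and 0.199 to 1.984 in Pirc rats. Of the 12 differences between the genotypes after DSS, 9 were negative and 3 positive. All 12 measured markers of the list were well above background in all 16 rats. Of these 12, 4 were lower in Pirc rats over both treatments and 4 after DSS, where 8.27% and 8.76% of all probes were lower, and none passed in untreated rats or was higher. After DSS, 1 of the 12 was higher and 1 lower over both genotypes, where 10.2% and 6.99% of all probes were. In Pirc rats alone 3 of the 12 were lower and none higher, where 6.51% of all probes were lower. Of the 11 general epithelial markers, 4 were lower in Pirc rats over both treatments and 5 after DSS, and none in untreated rats. The DSS difference passed for none of these 11 over both genotypes and for 1, lower, in Pirc rats. The part of such cells in the lower level of Slc16a1 and Acadm in Pirc rats was not tested.

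Markers of several other cell types rose after DSS over both genotypes, where 10.2% of all probes rose and 6.99% fell. All 8 fibroblast markers rose, and their summed signal moved from 1.52 to 1.97 in untreated wildtype rats to 2.84 to 15.6 after DSS, and from 1.64 to 2.92 to 5.92 to 15.9 in Pirc rats. Of 7 measured neutrophil markers 4 rose, with summed signals of 0.40 to 0.77 and 1.06 to 5.35 in untreated and treated wildtype rats and of 1.08 to 1.79 and 9.94 to 38.9 in Pirc rats. Of 9 measured markers of squamous epithelium and urothelium 6 rose, with 0.26 to 0.35 and 0.31 to 30.1 in wildtype rats and 0.26 to 0.40 and 11.1 to 54.7 in Pirc rats.

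Of the 8 macrophage markers 6 rose, with summed signals of 2.23 to 3.46 and 4.10 to 9.68 in untreated and treated wildtype rats and of 3.82 to 4.83 and 6.05 to 8.67 in Pirc rats. Of the remaining lists, 4 of 7 lymphocyte and 2 of 5 endothelial markers rose, 1 of 8 smooth muscle markers rose and 1 fell, and none of 6 proliferation markers passed. Over all probes 10.2% rose and 6.99% fell. Between the genotypes, fewer of these markers passed, with 2 neutrophil, 2 proliferation and 1 each of the macrophage, lymphocyte and squamous markers higher in Pirc rats, and none of the fibroblast, endothelial or smooth muscle markers. Over all probes 9.26% were higher and 8.27% lower in Pirc rats, and a count of 1 in a list is near these shares.

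Of the measured markers, 6 of 8 fibroblast, 4 of 7 neutrophil and 5 of 9 squamous markers were well above background in all 16 rats. The part of these cells in the DSS differences of Slc16a1, Acads and Acadm was not tested.

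**Figure D3:**
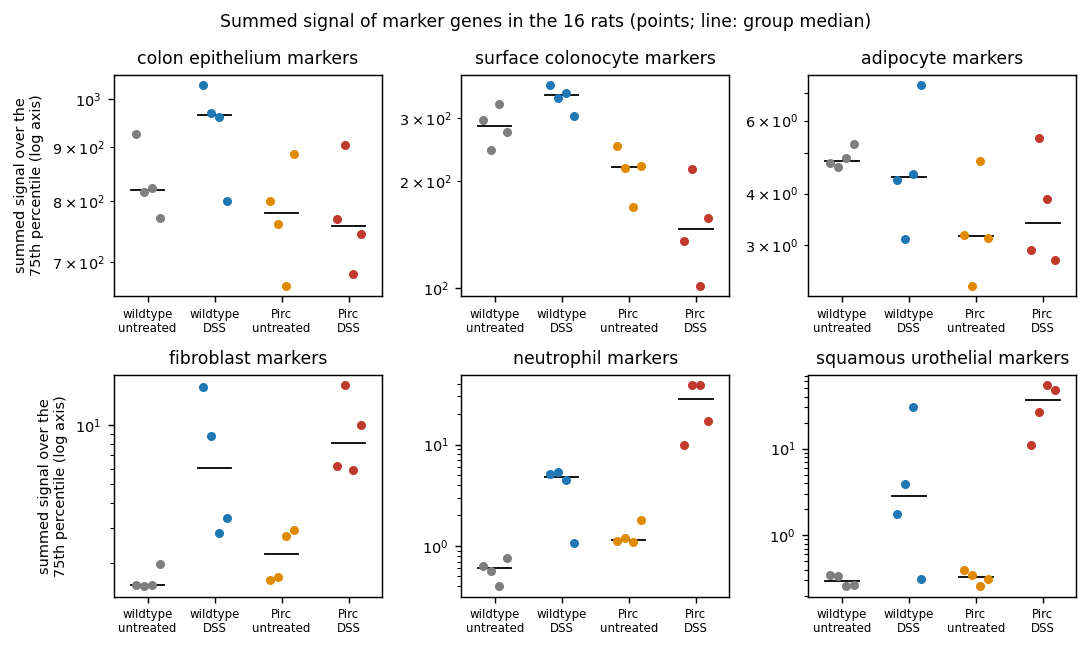
Summed signal of 6 marker lists in each of the 16 rats (points), relative to the 75th percentile of the array and on a log axis, with the median of each group as a line. The surface colonocyte sum of the DSS-treated Pirc rats, at 101 to 217, lies below that of both wildtype groups, and the neutrophil sum, at 9.94 to 38.9, lies above that of all other groups.

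The wider pathway was described from 8 lists with 102 genes besides the 9, of which 97 were measured. After DSS, over both genotypes, 32 of the 97 genes (33.0%) passed, 11 higher and 21 lower, beside 17.2% of all probes. With dim probes left out of the whole array, 5590 of 21759 probes passed there, a share between these 2. In Pirc rats 9 of the 97 genes rose and 16 fell, 25.8% of them beside 14.7% of all probes. With dim probes left out, 5037 of 21759 probes passed in Pirc rats, again a share between these 2. In wildtype rats 5 rose and none fell, beside 3.84% of all probes, and 25 had an unadjusted p below 0.05 in limma, beside 16.8%. With dim probes left out, 1577 of 21759 probes passed in wildtype rats, a larger share than that of the 97 genes. In Pirc against wildtype rats 8 were higher and 16 lower over both treatments, and 9 higher and 16 lower after DSS. These were 24.7% and 25.8% of the 97, where 17.5% and 18.2% of all probes passed. With dim probes left out, 6521 and 6697 of 21759 probes passed, larger shares than those of the 97 genes. None of the 97 genes passed in untreated rats, where 12 of them and 10.2% of all probes had an unadjusted p below 0.05. The difference between the DSS effects passed for none, and 18 of the 97 had an unadjusted p below 0.05, beside 10.6% of all probes. The median DSS difference of the lists ran from -0.28 for ketone body metabolism to 0.08 for transport and sensing.

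**Figure D4:**
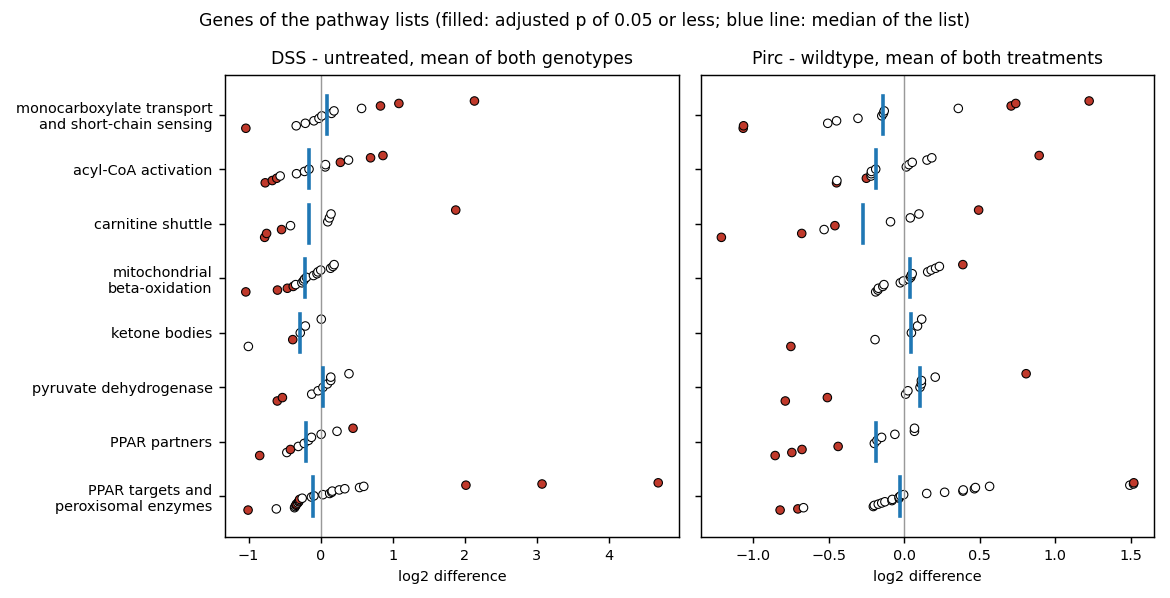
Log2 differences (horizontal axis) of the genes of 8 pathway lists for DSS over both genotypes (left) and for Pirc against wildtype over both treatments (right). Each point is 1 gene, filled where it passed the test, with the median of the list as a blue line. The points farthest to the right for DSS are Fabp4 at 4.69 and Angptl4 at 3.08, and the point farthest to the left between the genotypes is Slc22a5 at -1.21.

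Of 12 genes of monocarboxylate transport and short-chain fatty acid sensing, 3 rose and 1 fell after DSS. Emb, a glycoprotein that accompanies monocarboxylate transporters to the membrane, rose by 2.14 (adjusted p 0.000187), Slc16a3 (MCT4, which exports lactate) by 1.09 (0.00297) and Slc16a6 by 0.83 (0.000714). Emb was well above background in 1 of the 4 untreated wildtype rats, and its difference was 0.92 with normexp background correction. Ffar3, a receptor for short-chain fatty acids, was lower, and in DSS-treated Pirc rats it was not well above background on any array. Against the lowest signal well above background on each array, its level there was at least 2.06-fold lower than in untreated Pirc rats. The like value against DSS-treated wildtype rats was 2.10-fold. The adjusted p values, 0.000881 and 0.00145, belong to the measured differences and not to these bounds. With a common floor for all arrays, the DSS difference of Ffar3 over both genotypes was -0.35 and did not pass (adjusted p 0.0831).

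Slc16a3 stood at 2.51, 3.01, 2.88 and 2.47 in untreated and at 4.154, 3.816, 3.653 and 3.102 in DSS-treated wildtype rats. In Pirc rats it stood at 2.41, 2.16, 1.87 and 1.91 untreated and at 2.746, 4.238, 2.712 and 3.496 after DSS. Treated and untreated rats did not overlap in either genotype, in the direction opposite to Slc16a1. How many of all probes rose without overlap was not counted. In Pirc against wildtype rats over both treatments, Emb (1.22, adjusted p 0.0119), Slc16a7 (0.74, 0.00927) and Slc16a6 (0.71, 0.00419) were higher, and the efflux pump Abcg2 (-1.06, 0.00965) was lower.

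Of 13 measured genes of acyl-CoA activation, 3 rose and 3 fell after DSS. Acsm3, a synthetase for medium-chain acids, rose by 0.87 (adjusted p 0.00427), with 1.55 in wildtype rats (0.00538) and 0.18 in Pirc rats (0.742), and these responses differed by -1.36 (0.222). Acsl4 rose by 0.69 (0.00458) and Acsl5 by 0.27 (0.0391). Acsf2 differed by -0.77 (0.00613), and the acetyl-CoA synthetases Acss1 of the mitochondria and Acss2 of the cytosol by -0.67 (0.00304) and -0.61 (0.00546). Over both treatments, Acsl4 was higher in Pirc than in wildtype rats (0.89, 0.00208), and Acss2 (-0.45, 0.032) and Acsl3 (-0.25, 0.0434) were lower.

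Of 8 genes of carnitine transport and the carnitine shuttle, 1 rose and 3 fell after DSS. Slc22a4 rose by 1.88 (adjusted p 0.00135), or by 0.80 with normexp background correction, and was well above background in 3 of the 4 untreated Pirc rats. In contrast, the carnitine transporter Slc22a5 differed by -0.78 (0.0309), Cpt1c by -0.75 (0.0128) and the peroxisomal enzyme Crot by -0.54 (0.0135). The DSS difference of Slc22a5 was -1.38 in Pirc rats (0.0112) and -0.17 in wildtype rats (0.84), and these differed by -1.21 (0.377). Compared with wildtype rats over both treatments, Pirc rats had lower Slc22a5 (-1.21, 0.00397), Crot (-0.68, 0.00534) and Crat (-0.46, 0.0168) and higher Cpt1b (0.49, 0.038). Slc22a5 stood at -2.82, -2.18, -3.72 and -2.01 in DSS-treated Pirc rats, below all other rats. How many of all probes showed this pattern was not counted.

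Of 16 measured genes of mitochondrial beta-oxidation, 4 fell and none rose after DSS. The largest falls were those of Acadsb, which oxidises short and branched acyl chains (-1.04, adjusted p 0.00097), of the isomerase Eci1 (-0.60, 0.014) and of Hadh, the dehydrogenase of short 3-hydroxyacyl chains (-0.46, 0.015). The median of the list was -0.21. Between the genotypes only Acad9, which also helps to assemble respiratory complex I, passed over both treatments, at 0.39 (0.0082).

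Of 5 genes of ketone body metabolism, the thiolase Acat1 alone passed after DSS over both genotypes (-0.39, adjusted p 0.027). Oxct1, which returns acetoacetate to acetyl-CoA, stood at 2.17, 2.14, 1.70 and 2.49 in DSS-treated Pirc rats, below all other rats. The share of all probes with this pattern was not counted. It was lower in Pirc than in wildtype rats, with a difference of -1.17 after DSS (SE 0.18, adjusted p 0.0013) and of -0.75 over both treatments (adjusted p 0.0022). Its DSS difference in Pirc rats was -0.70 (adjusted p 0.0168), lost without rat 15 (0.0566), without rat 20 (0.059) and with only the Pirc rats in the fit (0.0624), in a range of 0.0069 to 0.0624 over 28 alternatives.

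**Figure D5:**
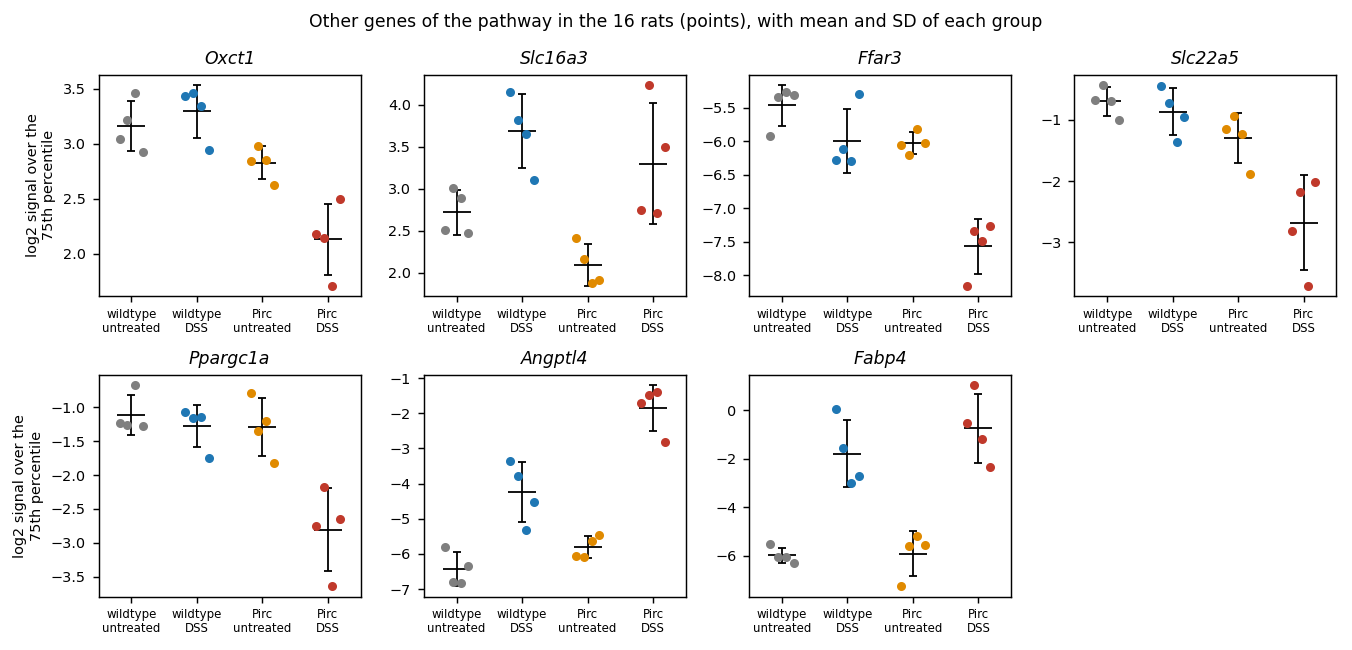
Transcript level of 7 further genes of the pathway in each of the 16 rats (points), as the log2 signal over the 75th percentile of the array, with the mean and SD of each group of 4. Oxct1, Slc22a5, Ppargc1a and Ffar3 are lowest in all 4 DSS-treated Pirc rats, and Angptl4 and Fabp4 are higher in every DSS-treated rat than in every untreated rat. The shares of all probes with these patterns were not counted.

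Of 9 measured genes that control pyruvate dehydrogenase, 2 fell after DSS, the phosphatase Pdp1 (-0.60, adjusted p 0.0171) and the kinase Pdk2 (-0.53, 0.0372). That of Pdp1 was -1.17 in Pirc rats (0.00324) and -0.03 in wildtype rats (0.957), and these differed by -1.14 (0.247). Over both treatments, the kinase Pdk3 was higher in Pirc than in wildtype rats (0.81, 0.0048), and Pdk2 (-0.79, 0.00594) and Pdp1 (-0.51, 0.0408) were lower. No gene of this list passed between the genotypes in untreated rats. Of 10 measured partners and coactivators of the PPARs, 1 rose and 2 fell after DSS. Rxra rose by 0.45 (0.0293), and Ppargc1a, a coactivator that drives mitochondrial gene expression, and Rxrb differed by -0.85 (0.00976) and -0.42 (0.00257).

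Over both treatments, Ppargc1a (-0.86, adjusted p 0.0114), Rxra (-0.74, 0.0029) and the epithelial transcription factor Hnf4a (-0.68, 0.00278) were lower in Pirc than in wildtype rats. No gene of this list passed between the genotypes in untreated rats. Ppargc1a stood at -2.75, -2.18, -3.65 and -2.65 in DSS-treated Pirc rats and between -1.82 and -0.67 in all others. The DSS-treated Pirc rats thus lay below every other rat, and how many of all probes did so was not counted. Of all probes, 8.06% had every DSS-treated Pirc rat below every untreated Pirc rat. For 9.13% every DSS-treated Pirc rat was below every DSS-treated wildtype rat. The DSS difference of Ppargc1a was -1.52 in Pirc rats (adjusted p 0.00285) and -0.17 in wildtype rats (0.822), and the difference between them, -1.35, had an adjusted p of 0.28.

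Of 24 PPAR targets and peroxisomal enzymes, 3 rose and 5 fell after DSS. The rises were those of Fabp4, a fatty acid binding protein of adipocytes, macrophages and endothelium, by 4.69 (adjusted p 3.68e-05), of Angptl4, a secreted inhibitor of lipoprotein lipase, by 3.08 (1.38e-05), and of the fatty acid transporter Cd36 by 2.02 (7.14e-05). The largest falls were those of Slc27a2 (-1.01, 9.2e-05), Acot2 (-0.34, 0.0434) and the peroxisomal thiolase Acaa1a (-0.34, 0.0206). Over both treatments, Angptl4 was higher in Pirc than in wildtype rats (1.52, 0.00352), and Txnip (-0.82, 0.0119) and the peroxisomal enzyme Ehhadh (-0.70, 0.0345) were lower.

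Angptl4 stood at -5.79, -6.79, -6.83 and -6.36 in untreated wildtype rats and at -3.37, -3.79, -5.31 and -4.53 after DSS. It stood at -6.06, -6.08, -5.63 and -5.45 in untreated Pirc rats and at -1.70, -1.49, -1.40 and -2.80 after DSS. The treated groups lay above both untreated groups, and the DSS-treated Pirc rats above the DSS-treated wildtype rats. How many of all probes showed these patterns was not counted. The DSS difference was 3.96 in Pirc rats (adjusted p 6.45e-05) and 2.19 in wildtype rats (0.00862), and under normexp background correction the latter was 0.91 (0.0945), the highest adjusted p over 28 alternatives, the lowest being 0.00215.

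Fabp4 stood between -7.28 and -5.21 in the untreated rats of both genotypes, between -3.00 and 0.06 in DSS-treated wildtype rats and between -2.33 and 1.06 in DSS-treated Pirc rats. Fabp4 is also on the list of adipocyte markers, of which 9 were measured, 6 of them well above background in all 16 rats. Of the 9, 4 rose and 1 fell after DSS, where 10.2% of all probes rose and 6.99% fell. The summed signal of these 9 overlapped among the groups, at 4.63 to 5.27 in untreated and 3.11 to 7.32 in DSS-treated wildtype rats and at 2.39 to 4.80 in untreated and 2.77 to 5.45 in DSS-treated Pirc rats. In contrast, their mean log2 level, in which Fabp4 is included, was higher in every DSS-treated than in every untreated rat. It was -4.852 to -4.667 and -4.184 to -3.335 in untreated and treated wildtype rats, and -5.059 to -4.659 and -4.078 to -2.728 in Pirc rats. Of the 9 DSS differences over both genotypes, 8 were positive and 1 negative. The part of adipocytes in the level of Fabp4 was not tested.

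Several of these calls did not hold under every setting. With normexp background correction the DSS calls of Ffar3 (-0.06), Acsf2 (-0.32), Cpt1c (-0.15), Acadsb (-0.29), Slc27a2 (-0.17) and Rxra (0.33) and the Pirc calls of Emb (0.29), Acsl3 (-0.25) and Cpt1b (0.28) were lost, at adjusted p from 0.0504 for Acsl3 to 0.75 for Ffar3. That of Ffar3 was also lost with a common floor, those of Rxra and Cpt1b under quantile normalization and that of Acsl3 with array row as a block. With the probes of a gene averaged, the Pirc difference of Cpt1b was 0.25 and the DSS difference of Acaa1a -0.28, and neither passed. With the sets of slide and row as a block, the DSS calls of Acsl5, Pdk2 and Rxra and the Pirc calls of Acsl3 and Ehhadh were lost, at adjusted p from 0.0517 to 0.0668 and with unchanged differences. The DSS differences that still passed with normexp were smaller for Fabp4 (3.102), Angptl4 (1.75) and Cd36 (1.27), as was the Pirc difference of Angptl4 (0.78). Leaving out 1 rat at a time ended the DSS call of Acsl5 and of Acot2 in 13 of 16 fits each, of Pdk2 in 11, of Slc22a5 in 8, of Acat1 in 6 and of Rxra in 4. For Rxra these were rats 15, 17, 18 and 22, and for Acat1 rats 13, 14, 15, 19, 20 and 22. Leaving out 1 rat ended the Pirc call of Acsl3 in 13 of 16 fits, of Pdp1 in 12, and of Acss2, Cpt1b and Ehhadh in 9 each.

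The genes whose level followed each of the 8 measured genes most closely over the 16 rats were sought among 10208 genes outside the lists. They are described by Pearson's r over these 16 rats, which share the 4 groups. They were Abhd1 (0.968) and Hoxd13 (0.967) for Slc16a1, Ikbke (0.848) and Tmlhe (0.807) for Slc5a8, Alkbh2 (0.950) and Stard10 (0.947) for Acads, and Kif16b (0.969) and Yju2b (0.960) for Acadm. They were Ndufb6 (0.895) and Kifc1 (0.876) for Bdh1, Degs2 (0.887) and Plekha8 (0.839) for Cpt1a, Osbpl7 (0.882) and Tfcp2l1 (0.876) for Ppara, and Abcc3 (0.905) and Il20ra (0.874) for Pparg. Among the 9 genes themselves, Slc16a1 and Acadm had an r of 0.84 and Slc16a1 and Slc5a8 one of -0.63.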

How the data were processed

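The authors deposited the scanner output of 16 single-colour arrays, 1 per rat, extracted with Agilent Feature Extraction 10.7.3.1. The signal used is a linear intensity from which the background of the spot was taken off, with no scaling across arrays. The labels name Partek for later processing, which was not used here. The linked paper describes other arrays of untreated animals, so the methods applied to these are not given in the sources used here.

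From each deposited intensity the log2 was taken and the log2 of the 75th percentile of the array subtracted. Spots of a probe were averaged without outlier-flagged spots, and control spots were left out. Where all spots of a probe were flagged (25 values) they were kept. Accessions of the probes were matched to RefSeq genes of GRCr8 (18006 of 30367 probes, 15159 symbols). The array was designed on an older build, so no probe coordinates are given. Where several probes matched a gene, the brightest on average stood for it.

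Groups were compared by moderated linear models (lmFit and eBayes of limma 3.58.1 under R 4.3.3, a mean for each group, all 16 arrays), with Benjamini-Hochberg adjustment over 30367 probes in each of 7 comparisons. Summaries used Python 3.11.15. The number of arrays limits the precision. P-values measure the spread between the rats of a group, each a separate animal per the labels. In simulated arrays with known changes added to both DSS groups, 62.7% of probes changed by 1 on the log2 scale were called over both genotypes, and 14.9% of those changed by 0.5. In these arrays 67 of the 30367 probes were changed by 0.5, 67 by 1 and 66 by 2. In the data 17.2% of probes passed that comparison. With few changed probes the adjustment is stricter, so the simulated shares can be lower than those in the data.

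The 9 genes and the pathway and marker lists were chosen with earlier results of these data known. Some genes of the pathway are not reported here and were left out of the lists. Named were all 9, in each pathway list up to 3 rises and 3 falls that passed over both genotypes (DSS) and over both treatments (Pirc), the 4 genes Oxct1, Slc16a3, Angptl4 and Fabp4, and the 2 genes most correlated with each measured gene. The Ffar3 bound sets the brighter group against the higher of the lowest signal well above background on each array and its own signal. Alternatives were normexp background correction (offset 50, on the median signal, as the files hold no mean signal), quantile normalization, scaling to the median of probes well above background, a filter on dim probes and a common floor, slide or array row as a block, all flagged spots kept, a fit of the compared groups alone, no variance moderation, probes of a gene averaged, a factor of 2 as well, and each rat left out. The 4 sets of slide and row as a block were added after seeing the data.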

Additional observations from a re-analysis of the deposited data

Results flagged for a closer look

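In 49 genes named here and 4 groups each, 196 groups of 4 rats were checked for a rat far from the other 3 by Dixon's test, in which chance flags about 1 in 20, or 9.8 of these groups. There were 7 such values, on the log2 scale of the signal over the 75th percentile of the array. Rat 26, a DSS-treated wildtype rat, held 2 of them, with Ppargc1a below its group at -1.74 and Ehhadh above its group at -1.77. Among untreated wildtype rats, Ffar3 stood apart in rat 13 at -5.92, Ppargc1a in rat 21 at -0.67 and Hadh in rat 25 at 5.44. Rxra stood apart in the untreated Pirc rat 15 at -4.77, and Pdk4 in the DSS-treated Pirc rat 16 at -6.05, where it was well above background, unlike in the other 3 rats of that group.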

How the results depend on the processing

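Most results held. Among differences of single genes, the 8 genes other than Pdk4 kept sign and side of the threshold in 839 results with a rat left out and 634 under other settings. Most of these had not passed at first and stayed so. With a rat left out 24 calls were lost, 8 gained and 25 signs turned, and under other settings 4, 7 and 3. The 24 lost were calls of Acadm and that of Slc16a1 for DSS in Pirc rats. The further pathway genes kept both in 1083 and 815 results. Of their calls 109 and 23 were lost and 3 and 0 gained, and 5 and 3 signs turned. With a rat left out, the number of the 9 genes that passed ranged from 2 to 4 after DSS over both genotypes, 0 to 4 in Pirc rats (0 without rat 11 or 20, 4 without rat 16), 1 to 5 between the genotypes (5 without rat 16, among them Pdk4, which is mostly not well above background) and 1 to 3 between them after DSS, and was 0 in the other comparisons. Quantile normalization gave 4 for DSS in Pirc rats, a fit of the compared groups alone gave 0 there and 1 between the genotypes after DSS, and a factor of 2 as well gave 0 in each of those 4 comparisons. The causes of these shifts were not tested. With a rat left out, the sign turned for small differences. Those of Slc5a8 ranged from -0.0236 to 0.0916 for DSS over both genotypes, -0.12 to 0.11 in Pirc rats and -0.20 to 0.0338 for the difference between DSS effects. Those of Bdh1 ranged from -0.034 to 0.0647 over both genotypes, -0.0108 to 0.19 in Pirc rats and -0.14 to 0.028 in wildtype rats. In wildtype rats the DSS difference ranged from -0.16 to 0.12 for Cpt1a and from -0.36 to 0.0067 for Pparg, and the Pirc difference of Cpt1a after DSS from -0.14 to 0.20. The difference between DSS effects ranged from -0.18 to 0.0773 for Acads and from -0.066 to 0.44 for Slc16a3, and the Pirc difference of Fabp4 in untreated rats from -0.16 to 0.53. Scaling to the median turned Slc5a8 in Pirc rats to 0.0050 and Cpt1a in wildtype rats to -0.0087 after DSS. Normexp turned Ppara in wildtype rats to 0.0469 after DSS, and in untreated rats the Pirc differences of Angptl4 to -0.0593 and of Fabp4 to -0.15, the latter also under quantile normalization (-0.0188). Normexp and quantile normalization also moved the median DSS difference of all probes from 0.06 to 0.15 and to -0.06. Dim probes such as Pdk4 give no fold. With 4 rats a group, changes near 0.5 on the log2 scale were seldom called in simulations. Far fewer probes were changed there than passed in the data, which makes the adjustment stricter. No rat number occurs in more than 1 group, so the numbers pair no rats. The 4 sets of arrays that share a slide and a row, used as a block in an analysis added after the data were seen, left 3 of the 9 genes past the test after DSS, 2 within Pirc rats, 2 between the genotypes after DSS and 1 rather than 2 between them over both treatments, where Acadm did not pass, and 0 elsewhere.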
